A study of Mus musculus with 27 samples.

Results

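The windows described here are those that lie closest to the centromere on each mouse autosome. They were chosen by position alone: a window of the deposited methylation table was a member if it lay on chromosomes 1 to 19 of GRCm38, ended at or below 6 Mb, and had a value in all 27 libraries. The rule gave 9519 members, which is 2.14% of the 444250 complete nuclear windows of the table and 2.25% of the 422141 complete autosomal windows. A further 232 windows ended below the limit but lacked a value in at least 1 library and were left out. The first window of each autosome starts between base 3000010 and base 3100031, so the members cover the first 3 Mb of assembled sequence, and 6 Mb is the limit and not a boundary seen in the data.

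Whole-genome bisulfite sequencing was used to measure DNA methylation in 3 mouse lines that were followed through the exit of naive pluripotency. DNMT_WT is the wild-type line from which a knockout of Dnmt1, Dnmt3a and Dnmt3b was made, and that knockout is not analysed here. TET_KO lacks Tet1, Tet2 and Tet3, and TET_WT is its wild-type parent. Each line was sampled as embryonic stem cells (ESC) in 2i/Lif medium on day 0 (D0) and as epiblast-like cells (EpiLC) on day 1 (D1) and day 2 (D2), with 3 libraries in each of the 9 groups. The labels do not say whether a line is a single clone or whether the libraries of a group came from separate cultures, so p-values measure only the spread between these libraries, and TET_KO is compared with its own parent alone. The values are percentages without read counts, so the depth behind each is unknown. Each percentage also averages over all cells of a library, so fewer methylated cells and fewer methylated CpGs per cell cannot be told apart.

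All mouse autosomes are acrocentric: the centromere sits at one end, embedded in minor satellite repeats and flanked by a large block of major satellite, most of which is absent from the reference assembly. In somatic cells this pericentromeric block is heavily methylated, and its heterochromatin carries H3K9 trimethylation laid down by Suv39h enzymes and H4K20 methylation laid down by Kmt5 enzymes. DNA methylation is written by Dnmt3a and Dnmt3b and copied at replication by Dnmt1, and Tet enzymes oxidise 5-methylcytosine, which leads to its loss. Naive ESC in 2i medium have little methylation, and it rises as cells enter the epiblast-like state. Bisulfite sequencing does not separate 5-methylcytosine from 5-hydroxymethylcytosine, the first Tet product.

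The members cover 54.2 Mb. A window holds 100 CpGs, as the table's name states, so a short window is CpG-rich. Member windows had a median length of 5234 bp, against 4942.5 bp for the other 412622 autosomal windows, and ran between 246 and 61786 bp. Gene starts fell in 7.15% of members, against 6.22% of the other autosomal windows, and 52.1% of members overlapped a protein-coding gene, against 52.4% of the others. Annotated genes that overlap a member and end within the limit numbered 1245, of which 584 code for protein. Chromosome 19 gave the most members (831) and chromosome 14 the fewest (207).

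The 250 bases before the start of 4 member genes are printed here because their start windows are described further on. They come from RefSeq on GRCm38.p6, are written 5′ to 3′ on the strand of the gene, and have each CpG, the base pair that the assay reads, in capitals. Arhgef18 (chr8:3392758-3393007, plus strand), whose annotated locus reaches farther upstream than the start used here, has 11 CpGs in them. Its window is the start window that was lower in TET_KO than in TET_WT. Esr1 (chr10:4611739-4611988, plus strand) has 4 and Lif (chr11:4257318-4257567, plus strand) has 6. Suv39h2 (chr2:3474987-3475236, minus strand) has 27 and stayed nearly unmethylated in every group.
Arhgef18: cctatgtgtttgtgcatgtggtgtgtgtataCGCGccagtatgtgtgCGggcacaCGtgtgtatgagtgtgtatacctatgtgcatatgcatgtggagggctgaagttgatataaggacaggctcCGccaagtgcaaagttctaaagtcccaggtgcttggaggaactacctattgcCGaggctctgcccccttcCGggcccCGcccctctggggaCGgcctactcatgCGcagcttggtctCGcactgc
Esr1: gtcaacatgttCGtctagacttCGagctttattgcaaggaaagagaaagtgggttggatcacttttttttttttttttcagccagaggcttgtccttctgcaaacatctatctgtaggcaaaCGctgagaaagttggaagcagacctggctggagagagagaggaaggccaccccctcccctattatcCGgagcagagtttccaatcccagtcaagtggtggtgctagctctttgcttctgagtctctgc
Lif: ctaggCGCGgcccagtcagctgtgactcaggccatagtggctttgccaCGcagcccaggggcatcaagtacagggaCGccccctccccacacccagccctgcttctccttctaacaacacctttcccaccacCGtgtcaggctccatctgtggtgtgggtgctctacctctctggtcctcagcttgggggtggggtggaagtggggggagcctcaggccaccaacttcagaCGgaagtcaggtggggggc
Suv39h2: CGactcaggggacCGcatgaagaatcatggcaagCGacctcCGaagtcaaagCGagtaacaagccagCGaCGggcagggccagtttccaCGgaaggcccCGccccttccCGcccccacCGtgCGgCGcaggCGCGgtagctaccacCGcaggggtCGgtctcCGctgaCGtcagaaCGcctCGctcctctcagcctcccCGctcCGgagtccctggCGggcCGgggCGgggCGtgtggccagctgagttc

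Members also hold the Mir290 to Mir295 cluster of chromosome 7, the most abundant microRNA cluster of mouse ESC. The RefSeq mature 3p arms of 6 of its microRNAs on the plus strand are printed because the cluster falls into a pair of member windows with different levels. Capitals mark the seed, bases 2 to 8. miR-291a-3p, miR-294-3p and miR-295-3p share the seed AAGUGCU, and each of the other arms printed has a seed that differs from the rest of them.
mmu-miR-290a-3p: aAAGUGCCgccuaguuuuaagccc
mmu-miR-291a-3p: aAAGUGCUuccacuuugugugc
mmu-miR-291b-3p: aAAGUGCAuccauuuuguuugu
mmu-miR-293-3p: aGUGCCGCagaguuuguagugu
mmu-miR-294-3p: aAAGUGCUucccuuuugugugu
mmu-miR-295-3p: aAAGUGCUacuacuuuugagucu

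Methylation of the members rose through both days in all 3 lines, and on D0 it differed most between the lines. In DNMT_WT the mean over members was 3.76, 3.85 and 3.88% in the D0 libraries, 14.2, 14.4 and 14.7% in the D1 libraries and 50.3, 49.6 and 50.2% in the D2 libraries. In TET_KO it was 51.9, 51.4 and 53.4% on D0, 59.2, 59.2 and 60.2% on D1 and 70.8, 71.6 and 69.4% on D2. In TET_WT it was 26.5, 27.2 and 26.99% on D0, 35.6, 32.8 and 35.6% on D1 and 53.1, 56.7 and 52.0% on D2. The lines did not overlap on D0 or D1. On D2 the TET_KO libraries were above all others, while DNMT_WT, at 50.03 ± 0.42%, lay below TET_WT, at 53.9 ± 2.5% (SD, n = 3 each), with no overlap between libraries.

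Set against the other autosomal windows of the same library, the members differed little. In DNMT_WT they lay 0.680 ± 0.0014 points above the others on D0, 0.696 ± 0.0098 on D1 and 0.137 ± 0.035 on D2 (SD of the difference over 3 libraries). In TET_WT they lay 1.52 ± 0.039, 1.47 ± 0.062 and 1.25 ± 0.14 points above on the 3 days. In TET_KO they lay 0.427 ± 0.031 points above on D0, 0.186 ± 0.045 above on D1 and 0.226 points below on D2, a difference of -0.226 ± 0.086. The TET_WT offset was above the other autosomal windows in 9 of 9 libraries, and so was that of DNMT_WT. The small DNMT_WT offset of D2 turned negative with the median over windows or a limit of 9 Mb, that of TET_KO on D1 turned negative with a limit of 5 Mb, and that of TET_KO on D2 turned positive with the median, with a limit of 9 Mb, with the other windows weighted to the length classes of the members or without chromosomes 7 and 14. The opposite chromosome end was no copy of this end: the 10316 windows of the last 3 Mb averaged 3.12% in DNMT_WT, 49.3% in TET_KO and 23.7% in TET_WT on D0, and 48.5%, 67.8% and 50.5% in the same lines on D2, below the members in each of these 6 groups.

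**Figure D1:**
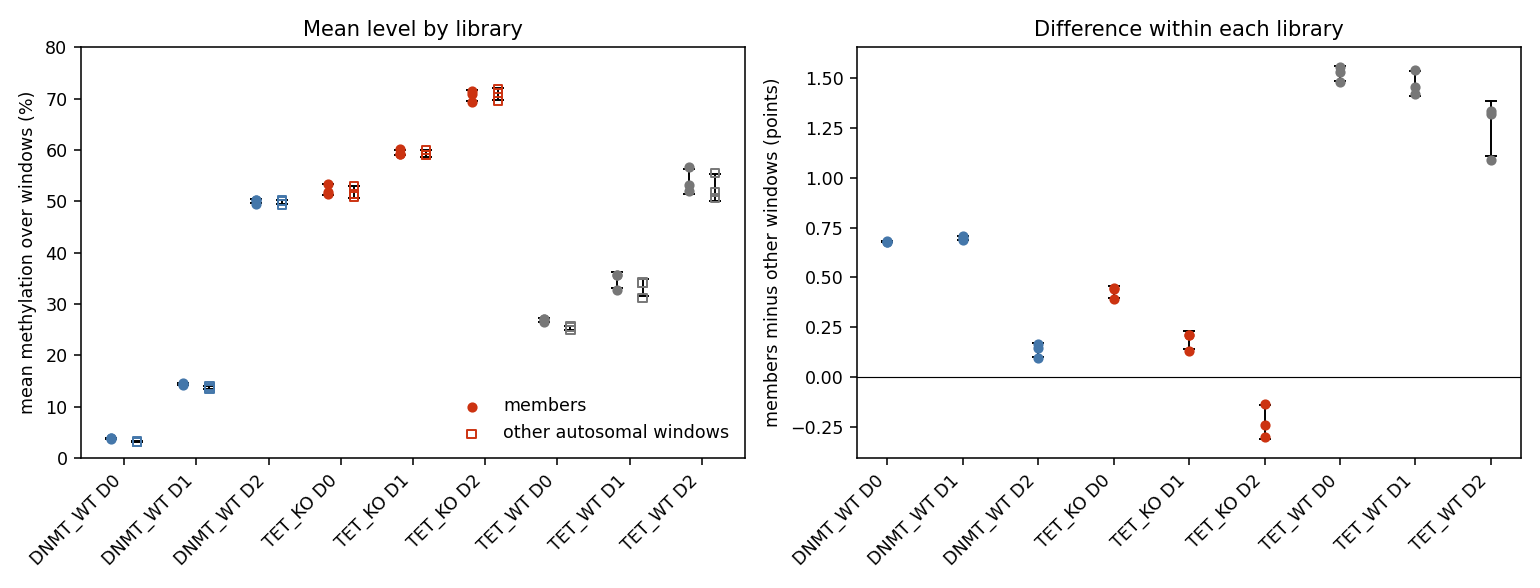
Mean methylation of the 9519 members (filled) and of the other autosomal windows (open) in every library, with the SD over 3 libraries (left, percent), and the difference between the 2 sets within each library (right, percentage points). The lines lie far apart on D0, the 2 sets lie within 2 points of each other in every library, and the difference stays above 0 in TET_WT on all days and falls below 0 in TET_KO on D2.

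Windows on either side of the position limit differed by little, and those outside were higher in every library. The 311 windows in the last 100 kb inside it averaged 3.17 ± 0.10% in DNMT_WT, 52.8 ± 1.2% in TET_KO and 25.9 ± 0.34% in TET_WT on D0. The 303 windows in the first 100 kb outside it averaged 3.50 ± 0.017%, 53.6 ± 1.2% and 26.6 ± 0.27% in the same lines (SD, n = 3). Within a library, outside minus inside was 0.326 ± 0.11 points in DNMT_WT, 0.756 ± 0.024 in TET_KO and 0.674 ± 0.11 in TET_WT on D0. On D2 it was 2.24 ± 0.24, 0.297 ± 0.065 and 1.07 ± 0.10 points in these lines, and DNMT_WT had no overlap between the sides on any day.

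Methylation within the members changed with distance to the first window of the chromosome, most in TET_WT. The 316 windows within 100 kb of that point averaged 7.42 ± 0.052% in DNMT_WT, 54.5 ± 1.0% in TET_KO and 35.3 ± 0.50% in TET_WT on D0. The 450 windows between 100 and 250 kb averaged 4.48 ± 0.034%, 52.4 ± 0.99% and 28.6 ± 0.36% in these lines, and the 3132 windows between 2000 and 3000 kb averaged 3.49 ± 0.073%, 52.7 ± 1.1% and 26.4 ± 0.33% (SD, n = 3). In both wild-type lines the D0 libraries of the innermost bin lay above all D0 libraries of the outermost bin. Within a library, the innermost minus the outermost bin was 3.93 ± 0.11 points in DNMT_WT, 1.75 ± 0.10 in TET_KO and 8.85 ± 0.20 in TET_WT on D0. By D2 the innermost bin stood at 50.8 ± 0.36% in DNMT_WT, 71.8 ± 1.1% in TET_KO and 57.0 ± 2.5% in TET_WT, against 50.1 ± 0.43%, 71.4 ± 1.1% and 53.7 ± 2.5% in the outermost. The difference within a library was then 0.702 ± 0.15 points in DNMT_WT, 0.400 ± 0.071 in TET_KO and 3.22 ± 0.16 in TET_WT, and it was above 0 in 3 of 3 libraries of every group. The fall on D0 was not steady. In TET_WT the D0 mean was lowest between 1000 and 2000 kb, at 25.7 ± 0.39%. Beyond the members, between 4000 and 6000 kb, the D0 mean was 3.71% in DNMT_WT, 53.8% in TET_KO and 27.7% in TET_WT. These are means over windows described without a test.

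**Figure D2:**
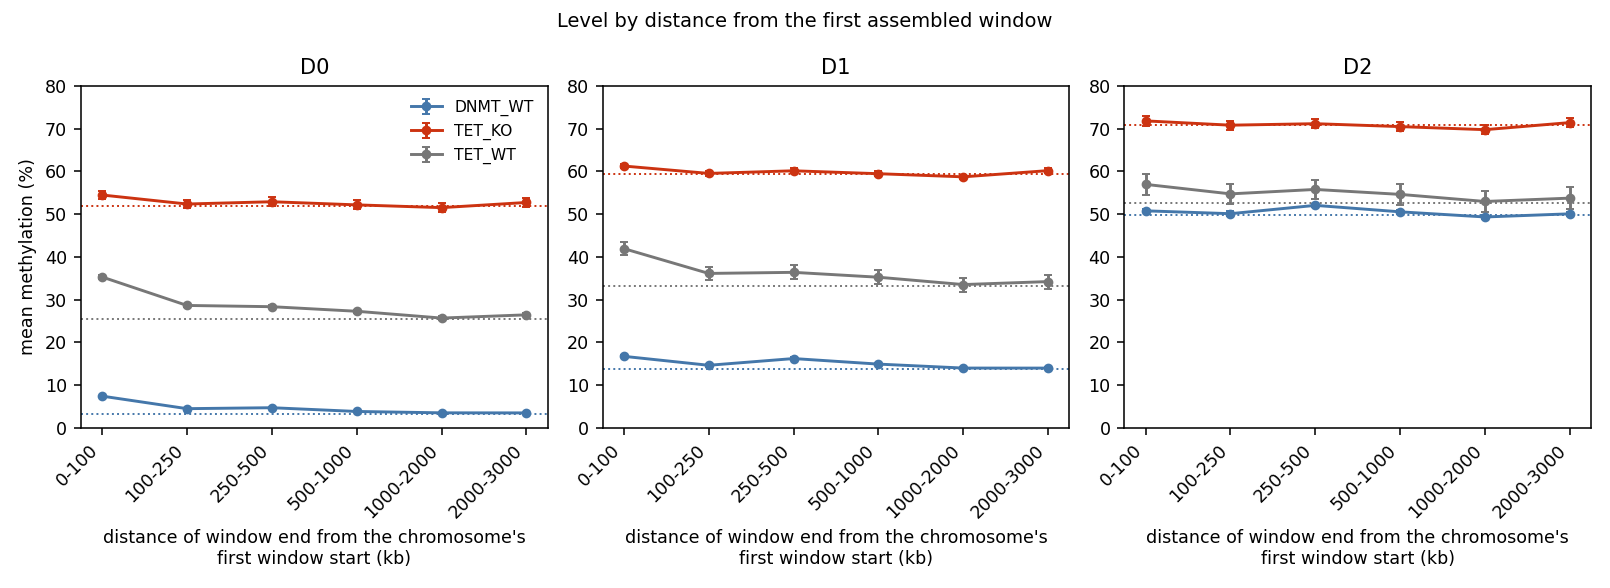
Mean methylation (percent) of windows binned by their distance from the first window of their chromosome (kb), for DNMT_WT, TET_KO and TET_WT on D0, D1 and D2. Error bars give the SD over 3 libraries and dotted lines the mean of the other autosomal windows of the same group. The TET_WT line starts at 35.3% and the DNMT_WT line at 7.42% on D0, both above their dotted lines. Both fall to 28.6% and 4.48% in the next bin and change less, and not steadily, beyond it. TET_KO stays between 51.5% and 54.5% out to 3000 kb.

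Part of the rise near the chromosome start came from chromosome 9. Its first 28 windows, chr9:3000031-3037685, were each between 889 and 1709 bp long (median 1356 bp), so CpGs were dense there. No other autosome began with a window under 2 kb. The run was singled out after its values were seen and is described with no test. On D0 its mean was 15.6, 15.6 and 15.3% in the DNMT_WT libraries, 49.0, 48.9 and 49.9% in the TET_KO libraries and 51.9, 51.5 and 51.5% in the TET_WT libraries. Here the TET_KO libraries of D0 all lay below those of TET_WT, the opposite of the members as a whole. Over the 28 windows, the D0 difference of TET_KO minus TET_WT ran between -5.18 and 1.06 points with a median of -2.47. The next 33 windows of chromosome 9, out to 250 kb, averaged 5.71 ± 0.20% in DNMT_WT, 51.7 ± 0.22% in TET_KO and 32.4 ± 0.88% in TET_WT.

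By D2 the run had risen to 59.3, 61.4 and 58.4% in the TET_KO libraries, against 61.1, 65.0 and 60.4% in the TET_WT libraries, and the 2 lines overlapped. DNMT_WT stood at 54.7 ± 0.76% there on D2 and at 15.5 ± 0.14% on D0, well above the 3.83 ± 0.064% of all members on D0. No repeat annotation and no measure of mappability was used here. Without the run, the first 250 kb still averaged 5.32% in DNMT_WT, 53.4% in TET_KO and 30.6% in TET_WT on D0 over 738 windows, against 3.67%, 52.2% and 26.5% over the 8753 members farther in.

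**Figure D3:**
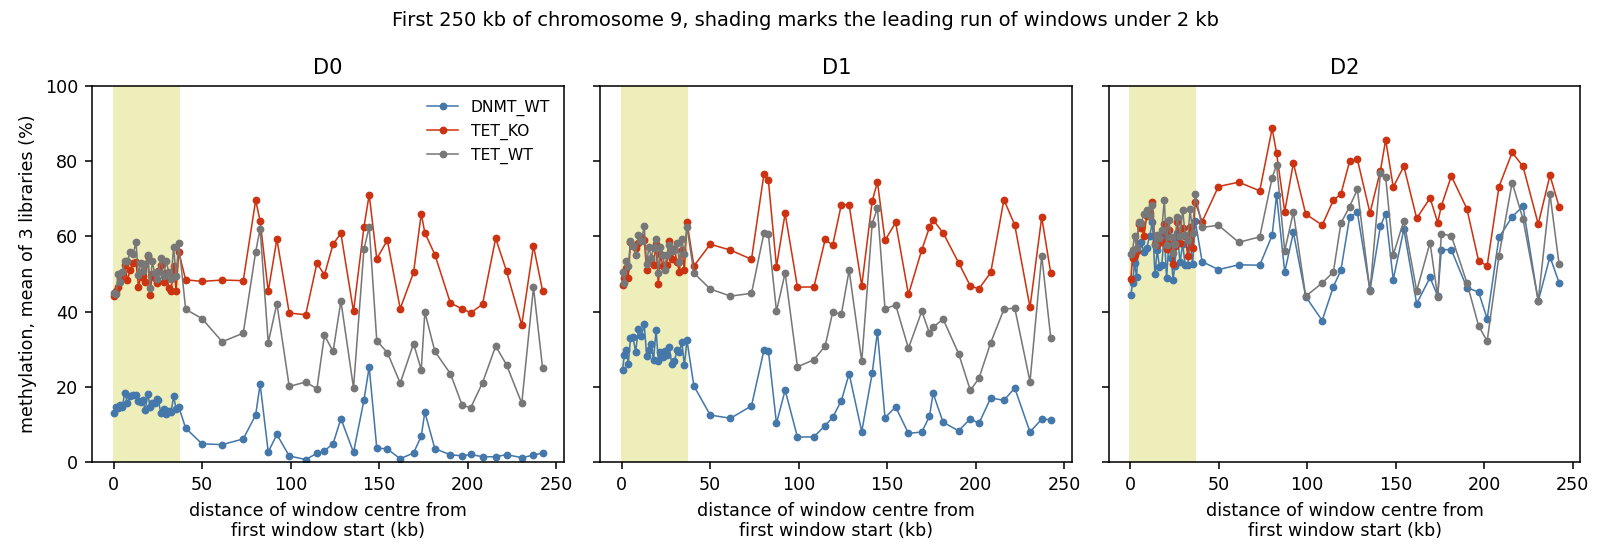
Methylation (percent, mean of 3 libraries) of each window in the first 250 kb of chromosome 9 against its distance from the first window (kb), for the 3 lines on D0, D1 and D2. The shaded stretch is the run of 28 short windows: the mean of TET_WT exceeds that of TET_KO there on all 3 days, DNMT_WT stands at 15.5% on D0, and over the next 33 windows TET_KO has the highest mean.

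Windows methylated in naive TET_WT and not clearly higher in TET_KO were a larger share of the members than of the other windows. A D0 level above 40% in TET_WT together with a TET_KO minus TET_WT difference under 5 points was found in 88 members (0.924%), against 1500 other autosomal windows (0.364%). Negative differences of any size were counted, so windows lower in TET_KO are included. All 28 windows of the chromosome 9 run were among the 88, and 60 of the remaining members (0.632%) met the same thresholds. In DNMT_WT, 121 members (1.27%) exceeded 20% on D0, against 2342 other windows (0.568%), and 32 of those members lay in the first 250 kb, where they made up 4.18% of windows. These thresholds were set after the levels were seen, and no test was made of them.

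The chromosomes differed from each other far more than members differed from the rest. Ranked by D0 in TET_WT, the highest means over members were 35.7 ± 0.43% on chromosome 9, 33.7 ± 0.39% on chromosome 18 and 32.8 ± 0.51% on chromosome 6. The lowest were 19.4 ± 0.36% on chromosome 19, 19.4 ± 0.21% on chromosome 7 and 20.6 ± 0.21% on chromosome 14 (SD, n = 3). In TET_KO on D0 the range ran between 41.1% on chromosome 7 and 58.7% on chromosome 6, and in DNMT_WT between 1.98% on chromosome 14 and 6.61% on chromosome 9. On D2 it ran between 33.2% (chromosome 14) and 56.5% (chromosome 18) in DNMT_WT, between 58.1% (chromosome 7) and 77.1% (chromosome 6) in TET_KO and between 37.7% (chromosome 14) and 62.1% (chromosome 18) in TET_WT. On D0 the libraries of 8 of the 18 pairs of neighbours in this order overlapped in DNMT_WT, 15 in TET_KO and 11 in TET_WT. On D2 these were 11, 14 and 18 pairs in the same lines.

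Set against the rest of the same chromosome, members went both ways. On D0 they lay above the rest in all 3 libraries on 13 chromosomes in DNMT_WT, 12 in TET_KO and 12 in TET_WT, and below it in all 3 libraries on 5, 6 and 7 chromosomes in these lines. Chromosome 9 members exceeded the rest of their chromosome by 3.42 points in DNMT_WT, 5.01 in TET_KO and 9.90 in TET_WT on D0. Chromosome 4 members exceeded theirs by 2.09 points in DNMT_WT, 7.07 in TET_KO and 7.90 in TET_WT, and chromosome 18 members by 2.37, 4.99 and 7.46 points in these lines. Chromosome 7 members lay under the rest of chromosome 7, with differences of -0.229 ± 0.056 points in DNMT_WT, -8.56 ± 0.21 in TET_KO and -4.45 ± 0.15 in TET_WT. Chromosome 19 members differed by -0.173 points in DNMT_WT, -7.78 in TET_KO and -5.63 in TET_WT.

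Chromosome 14 members, the fewest, had a median window length of 8872 bp, against 5498 bp on the rest of the chromosome. They differed from the rest of chromosome 14 by -1.19 points in DNMT_WT, -8.50 in TET_KO and -5.79 in TET_WT on D0. On D2 the differences were -15.0 ± 0.61, -9.99 ± 0.27 and -14.9 ± 0.96 points. The gap to the rest of the chromosome was thus wider on D2 than on D0 in all 3 lines, and by more in the wild-type lines. Of the 207 windows, 13 (6.28%) gained significantly more in TET_KO than in TET_WT between D0 and D2, against 2.5% of all windows, and 7 (3.38%) gained less, against 44.2% of all, with a median difference of 1.22 points, against -8.89 points over all members.

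**Figure D4:**
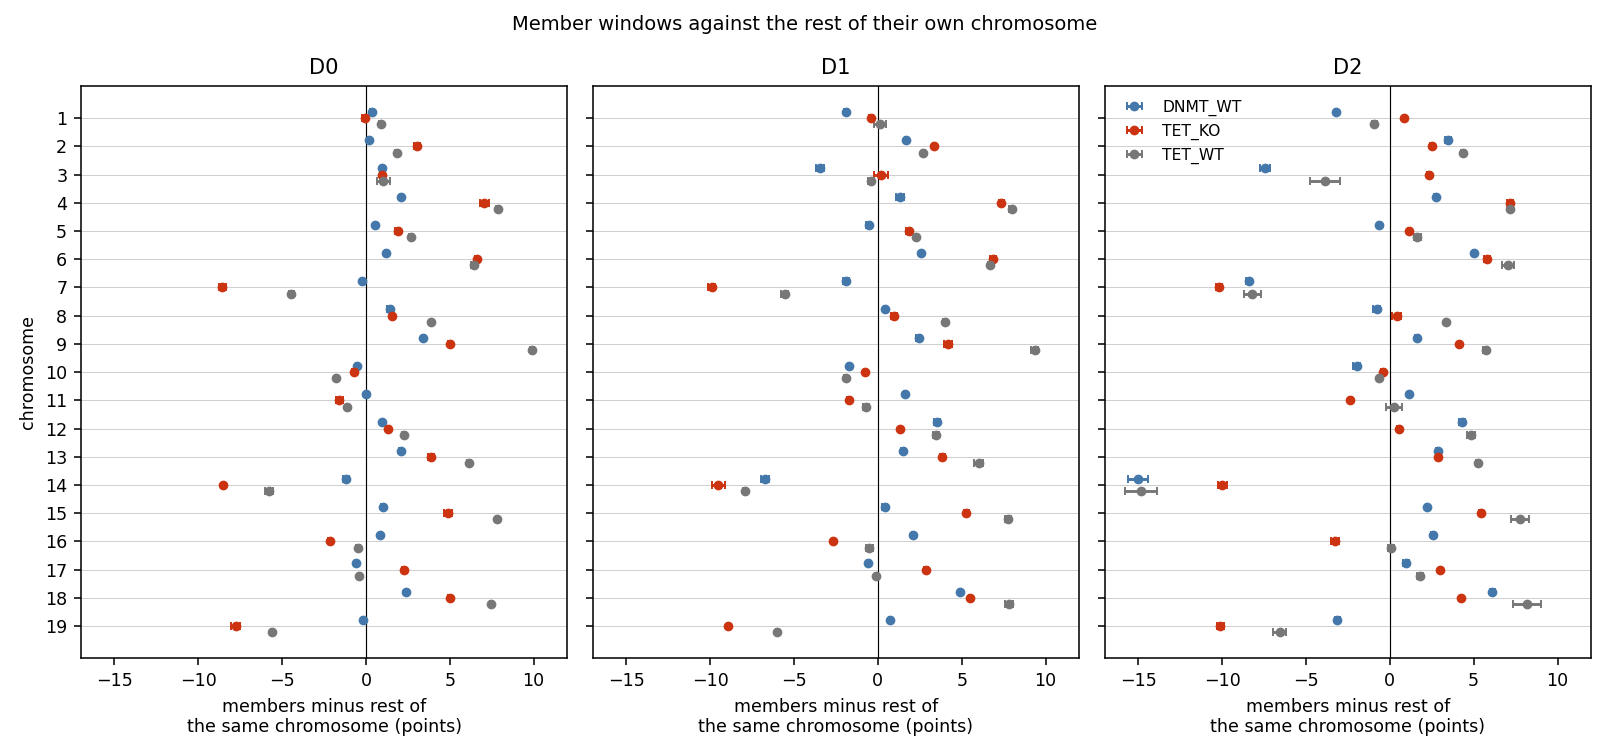
Mean methylation of members minus that of the rest of the same chromosome (percentage points, mean ± SD over 3 libraries) for chromosomes 1 to 19 in DNMT_WT, TET_KO and TET_WT on D0, D1 and D2. Chromosomes 7, 14 and 19 lie left of 0 in TET_KO and TET_WT on all days, chromosomes 4, 6, 9, 15 and 18 lie right of 0, and chromosome 14 reaches -15.0 points in DNMT_WT on D2.

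Levels differed strongly between classes of window length, the inverse of CpG density. The 392 members under 1 kb averaged 1.23% in DNMT_WT, 5.17% in TET_KO and 3.26% in TET_WT on D0, against 0.612%, 3.14% and 1.35% for other autosomal windows of that length. The 1267 members of 1 to 3 kb averaged 5.69%, 45.5% and 25.8% in these lines, against 3.98%, 47.3% and 22.5% for the others. At the CpG-poor end, the 304 members of at least 12 kb reached 38.5% in DNMT_WT, 71.3% in TET_KO and 44.9% in TET_WT on D2, against 31.9%, 65.7% and 37.1% for other windows of that length.

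Windows that hold a gene start were less methylated than windows outside protein-coding genes. The 681 such members averaged 1.69% in DNMT_WT, 31.0% in TET_KO and 13.8% in TET_WT on D0, against 1.84%, 33.6% and 15.1% for other start windows. The 4445 members without a gene start and outside protein-coding genes averaged 4.73%, 55.7% and 30.7% in these lines, against 3.20%, 53.0% and 26.5% for other windows of that class. Of the members, 460 (4.83%) stayed below 10% in all 9 groups, against 17181 other windows (4.16%), and among start windows these were 192 members (28.2%) and 6455 others (25.1%). The 810 gene starts in members had a median of 7 CpGs in the 250 bases before them, against 6 for starts elsewhere on the autosomes. That median was 19 for the 245 starts in windows below 10% in every group and 4 for the 565 others.

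The first day moved DNMT_WT more often than the other lines, and the second day moved most members in every line. A window was called when its limma adjusted p was below 0.05 and its difference at least 10 points, with adjustment over all 444250 windows. Between D0 and D1, 4730 members (49.7%) rose in DNMT_WT, against 49.0% of all tested windows. In TET_KO 1755 members (18.4%) rose, against 20.1% of all, and in TET_WT 2629 (27.6%) rose, against 27.6% of all. Between D1 and D2, 8939 members (93.9%) rose in DNMT_WT, against 94.9% of all windows, 5986 (62.9%) rose in TET_KO, against 65.8%, and 8356 (87.8%) rose in TET_WT, against 88.0%. No member fell in any of these 6 steps by limma at these thresholds, also with p-values taken on the logit scale. Falls were also rare over all windows: on the first day 0.00135% fell in DNMT_WT, 0.00225% in TET_KO and 0.00675% in TET_WT, and on the second day 0.0009% fell in DNMT_WT, 0.00428% in TET_KO and 0.00225% in TET_WT. At an unadjusted p under 0.05 and any size, 8, 10 and 5 members were lower on D1 than on D0 in DNMT_WT, TET_KO and TET_WT, and 3, 3 and 4 were lower on D2 than on D1. All shares of risers are close to the share over all windows.

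These rises were shared with the whole genome. The median of a library moved by 10.3 points in DNMT_WT, 8.43 in TET_KO and 8.46 in TET_WT on the first day, and by 40.5, 12.8 and 22.4 points in these lines on the second. With each library centred on its own median, 863 members (9.07%) rose in DNMT_WT on the first day, against 9.03% of all windows. Another 329 (3.46%) fell, against 2.99%. On the second day 114 (1.20%) rose, against 2.62% of all, and 2171 (22.8%) fell, against 25.4%. The same centring left 1 riser (0.0105%) and 25 fallers (0.263%) in TET_KO on the first day, against 0.0160% and 0.216% of all windows. In TET_WT it left 24 risers (0.252%) and 26 fallers (0.273%), against 0.296% and 0.220%. On the second day centring left 54 risers (0.567%) and 577 fallers (6.06%) in TET_KO, against 0.743% and 4.89% of all windows. In TET_WT it left 164 risers (1.72%) and 1600 fallers (16.8%), against 2.17% and 17.8%.

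Named windows show the size of the largest steps. In Frmd8, whose product belongs to the FERM-domain family (chr19:5852983-5856624), DNMT_WT stood at 6.02, 5.02 and 8.51% on D0, 39.8, 42.1 and 39.5% on D1 and 78.6, 78.0 and 79.1% on D2. The D1 minus D0 difference was 33.95 ± 2.86 points (limma SE, adjusted p = 1.78e-10), and every D1 library was above every D0 library. In Snx9, a sorting nexin of endocytosis (chr17:5879004-5881692), both wild-type lines were among the largest first-day gains. DNMT_WT there had 1.65, 15.4 and 10.3% on D0 and 42.7, 34.7 and 46.7% on D1, and TET_WT had 48.4, 66.4 and 49.2% on D0 and 72.7, 73.0 and 80.4% on D1. The D1 minus D0 differences were 32.2 ± 4.2 points in DNMT_WT (limma adjusted p = 1.12e-07) and 20.7 ± 4.2 points in TET_WT (limma adjusted p = 1.49e-04). In Lair1, an inhibitory receptor of immune cells (chr7:4017951-4019909), TET_WT had 37.1, 40.7 and 29.0% on D0, 70.2, 59.2 and 51.3% on D1 and 66.8, 70.4 and 65.5% on D2 (D1 minus D0 24.6 ± 4.5 points, limma adjusted p = 5.58e-05). Its D1 libraries spread widely and lay above all D0 libraries.

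On the second day the largest gain in TET_WT lay in Frmd4a, a scaffold protein of cell polarity (chr2:4573992-4578195). TET_WT had 6.51, 4.84 and 7.38% there on D0, 13.9, 10.3 and 16.1% on D1 and 59.2, 67.9 and 54.3% on D2 (D2 minus D1 47.0 ± 2.6 points, limma adjusted p = 1.93e-14). Most of its gain fell on the second day. In DNMT_WT the largest second-day gain was outside annotated genes at chr8:4964798-4966832, with 9.71, 10.6 and 11.7% on D0, 16.98, 21.1 and 23.7% on D1 and 84.0, 70.0 and 82.3% on D2 (58.1 ± 3.2 points, limma adjusted p = 1.75e-16). In TET_KO it was in Nf2, the gene of the tumour suppressor merlin (chr11:4802268-4806287), with 21.1, 21.2 and 21.2% on D0, 25.1, 22.9 and 25.8% on D1 and 57.1, 64.4 and 61.8% on D2 (36.5 ± 1.9 points, limma adjusted p = 5.43e-14). The Nf2 window thus began well under the TET_KO mean of all members on D0, which was 52.2 ± 1.1%.

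Loss of the Tet enzymes was accompanied by higher methylation over most members on every day. On D0, 8628 members (90.6%) were higher in TET_KO than in TET_WT, against 92.9% of all tested windows, and 3 were lower, against 0.0223% of all. On D1, 8582 (90.2%) were higher, against 92.6% of all, and 3 were lower, against 0.0248%. On D2, 7627 (80.1%) were higher, against 84.3% of all, and 4 were lower, against 0.0542%. The median difference was 27.1 points over members on D0, against 27.5 over all windows, and 16.5 points on D2, against 17.9 over all. The medians of the libraries themselves differed by 30.4, 30.3 and 20.7 points on the 3 days. Centring therefore turned the balance round, in members and over all windows alike. After it, 296 members (3.11%) were higher and 2206 (23.2%) lower in TET_KO on D0, against 3.69% and 19.2% of all windows. Counts for D1 were 209 (2.20%) higher and 2342 (24.6%) lower, against 2.76% and 19.8%. Those for D2 were 470 (4.94%) higher and 2143 (22.5%) lower, against 8.47% and 17.99%.

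The difference was smaller near the chromosome start on D0, and less so on D2. In the first 250 kb, 662 of 766 members (86.4%) were higher in TET_KO on D0, with a median of 23.6 points. Farther in, 7966 of 8753 members (91.0%) were higher, with a median of 27.4 points, and over all windows 92.9% were. Without the chromosome 9 run, where none was higher by this call, the first 250 kb held 662 of 738 (89.7%), with a median of 23.9 points. That share is close to those farther in and over all windows, so the smaller difference shows in the medians. By chromosome, the mean D0 difference of the first 250 kb lay under that of the members farther in on 16 of 19 autosomes and under that of the rest of the chromosome on 18 of 19. It ran between 9.36 points on chromosome 9 and 26.6 points. On D2 the median was 15.9 points in the first 250 kb, or 16.3 without the chromosome 9 run, against 16.6 points farther in, and the first 250 kb lay under the members farther in on 11 of 19 autosomes. Over all members of a chromosome the D0 difference ran between 21.6 points on chromosome 9 and 28.5 points on chromosome 17.

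The windows with the largest gaps on D0 were inside genes. In Ppp1r9a, the gene of the actin-binding neurabin (chr6:4934284-4937480), TET_KO had 71.3, 69.5 and 79.4% on D0, against 9.17, 11.4 and 12.6% in TET_WT (62.3 ± 2.8 points, limma adjusted p = 5.21e-17). On D2 it still had 89.5, 83.4 and 89.0% in TET_KO, against 39.7, 45.6 and 40.7% in TET_WT. In Neat1, the long noncoding RNA that scaffolds nuclear paraspeckles (chr19:5836962-5839878), TET_KO had 65.6, 60.6 and 68.4% on D0, against 6.95, 5.88 and 4.44% in TET_WT (59.1 ± 2.8 points, limma adjusted p = 1.13e-16). Both windows were thus nearly empty in naive TET_WT and mostly methylated in TET_KO, with no overlap.

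In Pola2, a subunit of DNA polymerase alpha (chr19:5952711-5954176), the gap was largest on D1, when TET_KO had 80.9, 79.6 and 78.6%, against 14.2, 16.4 and 11.3% in TET_WT (65.7 ± 2.4 points, limma adjusted p = 5.16e-18). In Akap12, a scaffold of protein kinase A (chr10:4353845-4355199), TET_KO had 71.0, 79.6 and 81.3% on D2, against 21.3, 19.8 and 22.7% in TET_WT (56.0 ± 2.7 points, limma adjusted p = 2.35e-16). That window gained little in TET_WT before D2, with 3.06, 0.936 and 2.74% on D0 and 2.06, 2.60 and 3.48% on D1.

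Very few members went the other way, and all those called lower on D0 lay on chromosome 8. The window that holds the Arhgef18 start printed above (chr8:3390329-3393148) lies inside the annotated locus, which reaches farther upstream. The gene encodes a guanine nucleotide exchange factor. This window had 3.01, 2.59 and 3.93% in TET_KO on D0, against 17.7, 15.5 and 16.9% in TET_WT. It had 7.23, 9.09 and 5.96% in TET_KO on D2, against 28.1, 32.4 and 29.2% in TET_WT. The difference was -13.5 ± 1.2 points on D0 (limma adjusted p = 1.16e-11) and -22.4 ± 1.2 points on D2 (limma adjusted p = 1.40e-15). DNMT_WT had 0.544, 1.05 and 0.498% there on D0 and 22.4, 19.4 and 23.1% on D2, so on D2 it lay nearer to TET_WT than to TET_KO.

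The window before it (chr8:3387584-3390328), also inside the annotated Arhgef18 locus, had 28.1, 28.8 and 28.7% in TET_KO on D0, against 40.7, 40.6 and 37.7% in TET_WT, and 46.4, 44.0 and 41.4% in TET_KO on D2, against 77.4, 73.1 and 70.8% in TET_WT. Its differences were -11.2 ± 2.1 points on D0 (limma adjusted p = 1.55e-05) and -29.8 ± 2.1 on D2 (limma adjusted p = 4.11e-13). The direction did not hold across the gene: another Arhgef18 window (chr8:3431794-3433829) was 57.1 ± 3.0 points higher in TET_KO on D0 (limma adjusted p = 6.96e-16). In Gm7434, a predicted gene (chr8:4377549-4380255), TET_KO had 38.5, 30.8 and 40.1% on D0, against 62.5, 52.1 and 57.5% in TET_WT. On D2 it had 43.8, 38.5 and 44.9% in TET_KO, against 79.0, 82.3 and 77.7% in TET_WT (-37.3 ± 2.9 points, limma adjusted p = 2.13e-12). On D2 a 4th window, outside annotated genes at chr11:5692135-5696415, was also lower in TET_KO, by a difference of -15.97 ± 2.27 points (limma adjusted p = 2.17e-07).

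**Figure D5:**
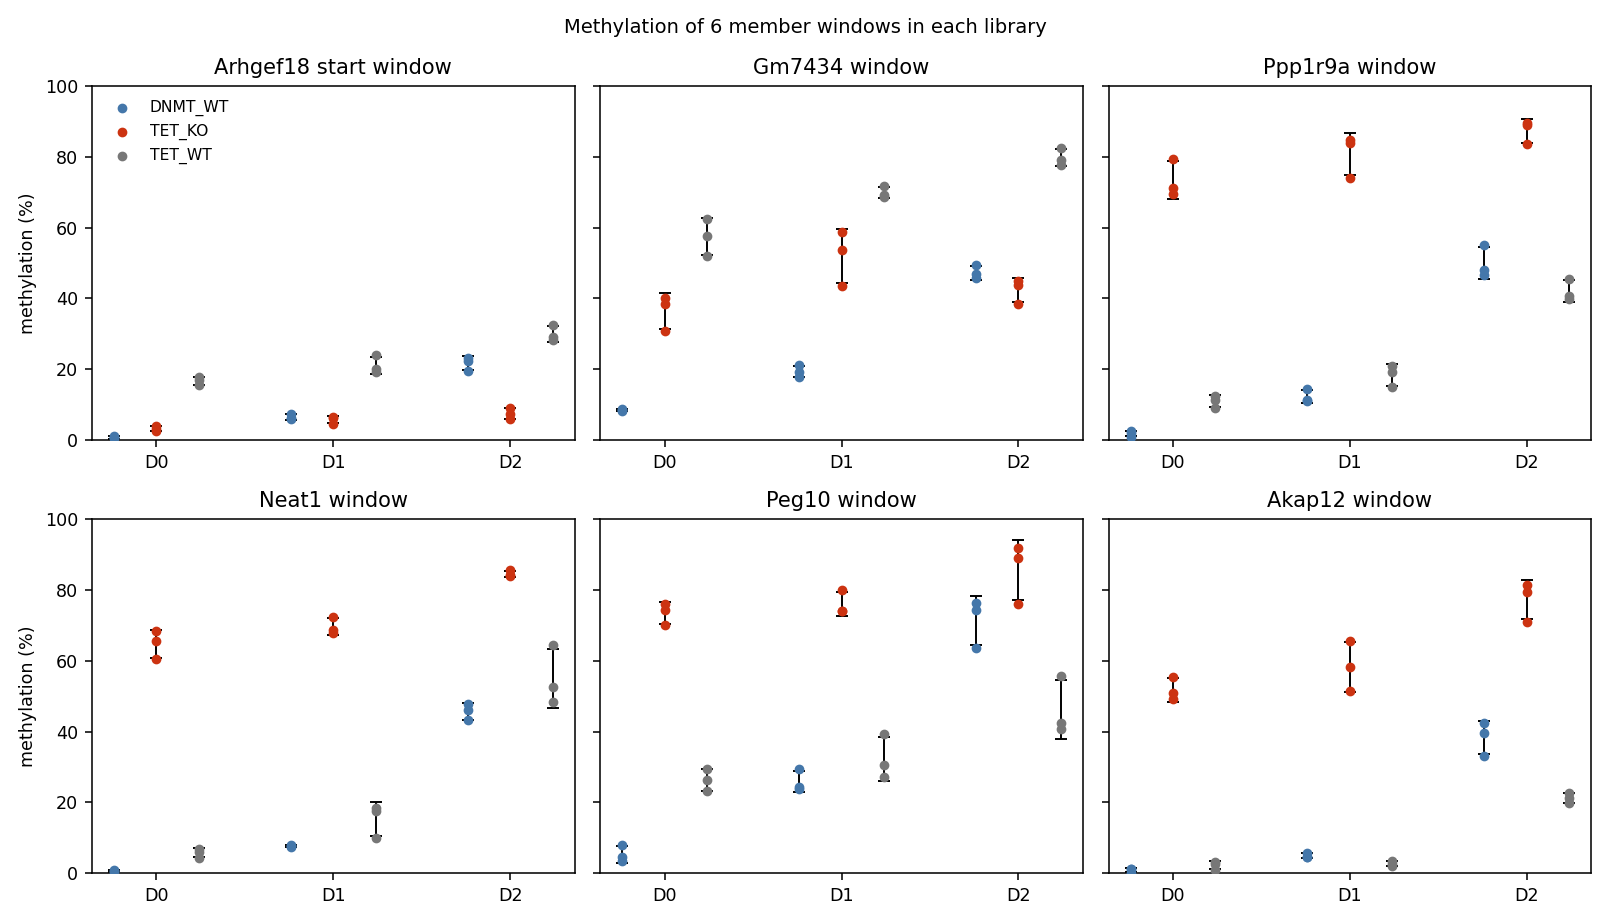
Methylation (percent) in each library, with the mean and SD over 3 libraries, of 6 member windows on D0, D1 and D2 in DNMT_WT, TET_KO and TET_WT. The TET_KO mean is below that of TET_WT at the Arhgef18 start and in Gm7434, and the highest of the 3 lines in Ppp1r9a, Neat1, Peg10 and Akap12 on D0, D1 and D2.

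The wild-type lines differed from each other most before differentiation. On D0, 8355 members (87.8%) were lower in DNMT_WT than in TET_WT, against 88.9% of all windows, and none was higher by limma or on the logit scale (10 at an unadjusted p under 0.05), against 0.0009% of all windows. On D1, 8062 (84.7%) were lower, against 85.6% of all, and none was higher (15 at an unadjusted p under 0.05), against 0.0126% of all. On D2, 131 (1.38%) were higher in DNMT_WT, against 1.78% of all, and 1404 (14.7%) were lower, against 10.5% of all. The median difference over members was -23.4 points on D0, against -22.7 over all windows, and -3.65 points on D2, against -2.74. Library medians differed by -22.9, -21.0 and -2.97 points on the 3 days. Centred, 1525 members (16.02%) were higher and 1631 (17.1%) lower in DNMT_WT on D0, against 15.8% and 13.5% of all windows. Counts for D1 were 1604 (16.9%) higher and 1102 (11.6%) lower, against 16.03% and 7.95%. Those for D2 were 320 (3.36%) higher and 702 (7.37%) lower, against 4.14% and 4.76%.

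The largest D0 gap was in Gm29826, a predicted gene (chr10:3313989-3317053), with 2.00, 1.49 and 1.93% in DNMT_WT, against 66.8, 62.7 and 68.1% in TET_WT (-64.1 ± 2.9 points, limma adjusted p = 1.34e-16). TET_KO had 72.5, 68.6 and 64.8% there on D0 and overlapped with TET_WT. On D2, C7, the gene of a terminal complement component (chr15:5019419-5024964), had 69.8, 72.7 and 69.1% in DNMT_WT, against 36.3, 30.4 and 37.1% in TET_WT (35.9 ± 1.8 points, limma adjusted p = 1.12e-13). Gm52887 (chr6:5321555-5325425) went the other way, with 35.0, 22.6 and 32.3% in DNMT_WT, against 63.4, 66.4 and 65.7% in TET_WT (-35.2 ± 2.4 points, limma adjusted p = 2.21e-11). Differences of that size on D2 were rare in both directions among members.

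The gain between D0 and D2 was smaller in TET_KO than in TET_WT in 4226 members (44.4%), against 44.2% of all windows, and larger in 57 (0.599%), against 2.5% of all. With p-values taken on the logit scale, 2572 members had the smaller and 5 the larger gain. The median difference was -8.89 points over members and -8.69 over all windows. Library medians differed in their gain by -9.64 points. After centring, 1197 members (12.6%) gained more and 749 (7.87%) less in TET_KO, against 17.9% and 8.45% of all windows. In the first 250 kb, 237 of 766 members (30.9%) gained less in TET_KO and 8 (1.04%) more, with a median of -6.09 points. Farther in, 3989 of 8753 (45.6%) gained less and 49 (0.560%) more, with a median of -9.13 points. DNMT_WT gained more than TET_WT in 7836 members (82.3%), against 82.7% of all windows, and less in 1, against 0.0196%. Library medians differed there by 19.9 points. Centring left 1188 members (12.5%) with more and 1636 (17.2%) with less gain in DNMT_WT, against 12.5% and 16.8% of all windows.

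Camk1d, a calcium- and calmodulin-dependent kinase (chr2:5580974-5583691), had the largest shortfall of gain in TET_KO. TET_KO had 76.9, 66.9 and 75.0% on D0 and 88.9, 92.6 and 90.4% on D2, and TET_WT had 25.6, 19.5 and 19.5% on D0 and 78.8, 80.1 and 73.9% on D2. The gains differed by -38.3 ± 3.8 points (limma adjusted p = 4.26e-08), and TET_KO began close to where TET_WT ended. Gm17308, a predicted gene (chr3:5093566-5107267), showed the opposite: TET_KO had 32.1, 31.2 and 35.2% on D0 and 61.3, 63.5 and 59.7% on D2, and TET_WT had 12.4, 11.4 and 12.2% on D0 and 22.2, 26.6 and 21.3% on D2. The gains differed by 17.3 ± 2.2 points (limma adjusted p = 7.80e-07), and this call was lost on the logit scale (adjusted p = 0.0539).

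Genes in the members were grouped in 10 lists by role or position, with 150 of 159 listed genes measured through the mean of the windows that overlap the gene body, and tested over 48721 genes. On D0, 96.0% of all genes were higher in TET_KO than in TET_WT and the median gene differed by 26.3 points. Of 17 chromatin genes 16 rose, with a median of 24.2 points. Of 18 transcription factor genes 17 rose, with a median of 20.2 points, and of 24 signalling genes 23 rose, with a median of 25.3. All 17 immune genes rose (median 26.8), as did all 11 long neuronal genes (28.2), all 11 genes of the imprinted domain of chromosome 6 (25.1), all 9 aldo-keto reductase genes of chromosome 13 (27.6) and all 9 germline genes (21.9). Of 22 ubiquitously expressed genes 20 rose (22.1), whereas of 12 noncoding RNA genes 5 rose (2.83). MicroRNA genes of the chromosome 7 cluster in that list share windows and so repeat a value. Its counts and medians are therefore not those of separate measurements. None fell in any list, against 0.00411% of all genes. With libraries centred, no gene of these lists was higher on D0. Every list median was then negative, between -27.5 points for noncoding RNA and -2.21 points for long neuronal genes. Centring took off library medians over windows, which differed by 30.4 points, more than the median gene difference of 26.3 points. The median gene was thus negative too, and the sign sets no list apart.

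On D2, 87.5% of all genes were higher in TET_KO and the median gene differed by 16.5 points. The chromatin list had 12 of 17 higher (median 10.8 points), transcription factors 15 of 18 (13.97), signalling 21 of 24 (13.9), immune 17 of 17 (19.7), long neuronal 11 of 11 (17.8) and the chromosome 6 domain 10 of 11 (13.9). Germline genes had 8 of 9 (13.9), ubiquitously expressed genes 15 of 22 (11.97), keto-reductases 9 of 9 (17.8) and noncoding RNAs 4 of 12 (2.13). The gain between D0 and D2 was smaller in TET_KO in 44.1% of all genes, and the median gene gained less by a difference of -8.998 points. It was smaller in 13 of 17 chromatin genes, 1 of 18 transcription factor genes, 12 of 24 signalling genes, 5 of 17 immune genes, 5 of 11 long neuronal genes, 7 of 11 genes of the chromosome 6 domain, 4 of 9 keto-reductase genes, 1 of 9 germline genes, 11 of 22 ubiquitously expressed genes and 1 of 12 noncoding RNA genes. The chromatin list had the lowest median of these, at -11.9 points, and the noncoding RNA list the highest, at -3.65 points. With libraries centred, every list median of the D2 difference was negative, between -18.6 and -1.06 points. So was the median gene, since library medians over windows differed by 20.7 points on D2. Of 17 chromatin genes, 7 were then lower and none higher in TET_KO. Centred, no gene of any list gained less in TET_KO, and list medians of the gain ran between -2.28 points for chromatin and 5.99 points for noncoding RNA. The lists hold few genes each, and microRNA genes of the noncoding RNA list repeat the value of a shared window.

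Among enzymes of methylation and pericentromeric chromatin, Dnmt3a, the de novo methyltransferase (chromosome 12, 34 windows), had 48.8, 48.1 and 49.9% in TET_KO on D0, against 23.2, 24.5 and 23.97% in TET_WT (25.0 ± 0.96 points, limma adjusted p = 1.47e-17). Suv39h2, an enzyme of H3K9 trimethylation (6 windows), had 38.0, 35.0 and 36.7% in TET_KO, against 15.8, 16 and 16.7% in TET_WT (20.4 ± 1.0 points, limma adjusted p = 6.39e-16). The gene bodies rose without overlap, but the CpG-dense Suv39h2 start window (chr2:3474879-3476014) stayed low, with 5.22, 4.03 and 4.16% in TET_KO on D0, against 0.745, 0.552 and 0.118% in TET_WT. That difference of 3.998 ± 0.542 points had a limma adjusted p of 6.60e-08 and missed the 10 points of the call. Relative to the library medians, the Dnmt3a and Suv39h2 bodies were lower in TET_KO on D0, by differences of -5.34 and -9.98 points. Since the median gene was also negative after centring, a negative sign sets neither these genes nor those below apart.

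Kmt5b and Kmt5c, the H4K20 methyltransferases, were also higher in TET_KO, and lower once libraries were centred. Kmt5b had 43.3, 42.1 and 44.9% in TET_KO on D0, against 20.2, 20.6 and 21.1% in TET_WT, a difference of 22.8 ± 1.0 points (limma adjusted p = 1.04e-16) that became -7.54 after centring. Kmt5c had 28.7, 28.3 and 31.2% in TET_KO on D0, against 6.87, 8.06 and 7.48% in TET_WT, a difference of 21.9 ± 1.3 points (limma adjusted p = 2.90e-14) that became -8.45. On D2, Kmt5c differed by 15.4 ± 1.3 points (limma adjusted p = 5.90e-11) and Suv39h2 by 9.60 ± 1.0 (limma adjusted p = 2.02e-09), under the 10 points needed. Cenpo, a component of the constitutive centromere network (11 windows), showed the largest difference of the list on D0, with 62.7, 61.7 and 65.2% in TET_KO, against 31.2, 30.8 and 31.4% in TET_WT (32.1 ± 1.3 points, limma adjusted p = 4.78e-17).

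Of the signalling genes, Lif encodes the cytokine that is also added to the D0 medium. Its body (7 windows) had 37.0, 34.0 and 37.2% in TET_KO on D0, against 14.7, 13.9 and 15.6% in TET_WT (21.4 ± 1.3 points, limma adjusted p = 4.61e-14; -9.02 after centring). Its start window (chr11:4252556-4257924), which holds the 250 bases printed above, had 58.1, 48.9 and 50.6% in TET_KO on D0, against 18.5, 24.5 and 25.3% in TET_WT. The difference of 29.8 ± 2.6 points (limma adjusted p = 1.31e-11) became -0.599 after centring. On D2 the start window had 76.6, 78.8 and 76.9% in TET_KO, against 68.3, 72.0 and 66.4% in TET_WT, and the difference of 8.52 ± 2.6 points was not called (limma adjusted p = 0.00353). Osm, a related cytokine next to Lif, differed by 32.8 ± 1.5 points on D0 (limma adjusted p = 1.39e-16), with 43.3, 42.3 and 43.8% in TET_KO, against 10.1, 9.67 and 11.3% in TET_WT.

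Of the transcription factors, Esr1, the estrogen receptor alpha gene (66 windows), had 51.1, 50.2 and 53.0% in TET_KO on D0, against 24.7, 26.2 and 24.8% in TET_WT (26.2 ± 1.2 points, limma adjusted p = 1.55e-16; -4.14 after centring). Its start window (chr10:4609602-4612694) had 54.5, 54.6 and 60.0% in TET_KO, against 13.8, 19.1 and 17.9% in TET_WT (39.4 ± 1.9 points, limma adjusted p = 1.80e-16), a larger difference than that of its body. Sox17, a factor of endoderm, behaved differently: its 6 windows had 11.1, 11.1 and 11.7% in TET_KO on D0, against 4.58, 4.68 and 4.37% in TET_WT, and 14.6, 14.5 and 15.4% on D2, against 10.2, 11.1 and 8.19%. Its D0 difference of 6.74 ± 0.57 points (limma adjusted p = 2.50e-11) was not called and became -23.6 after centring. Zeb1, a factor of epithelial to mesenchymal transition, had 52.6, 52.8 and 54.8% in TET_KO on D0, against 32.2, 32.7 and 32.0% in TET_WT (21.1 ± 0.97 points, limma adjusted p = 2.26e-16; -9.30 after centring). On D2 the list's largest differences were in Hnf4g, a nuclear receptor, at 31.9 ± 1.4 points (limma adjusted p = 6.05e-16), and in Zfhx4, a zinc finger homeobox factor, at 30.6 ± 1.2 points (limma adjusted p = 9.72e-17).

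In the imprinted domain of chromosome 6, Peg10, a retrotransposon-derived gene expressed from the paternal allele, has a start that is methylated on the maternal allele in somatic tissue. Its CpG-dense window (chr6:4748300-4749377) never exceeded 10.5% in any library here, with 1.63, 1.23 and 0.803% in TET_KO on D0, against 1.58, 3.65 and 4.67% in TET_WT. Its D0 difference of -2.08 ± 1.4 points did not pass the test (limma adjusted p = 0.165). A window farther into Peg10 (chr6:4755029-4756333) had 74.3, 63.5 and 76.4% in DNMT_WT on D2, against 55.7, 40.7 and 42.3% in TET_WT (25.1 ± 3.8 points, limma adjusted p = 1.26e-05). TET_KO had 91.9, 88.9 and 76.0% there on D2, above TET_WT in all 3 libraries.

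The body of Peg10 had 34.5, 35.6 and 36.7% in TET_KO on D0, against 16.3, 17.1 and 16.5% in TET_WT (18.97 ± 1.19 points, limma adjusted p = 7.80e-14; -11.4 after centring). Sgce, its imprinted neighbour that encodes epsilon-sarcoglycan (19 windows), had 59.2, 57.4 and 61.2% in TET_KO on D0, against 28.1, 30.6 and 30.0% in TET_WT (29.7 ± 1.1 points, limma adjusted p = 1.40e-17; -0.721 after centring). A Sgce window (chr6:4674680-4678767) gave one of the largest second-day gains of TET_WT, with 10.9, 12.2 and 12.7% on D0, 27.8, 23.3 and 29.4% on D1 and 72.5, 74.5 and 67.5% on D2 (D2 minus D1 44.7 ± 2.1 points, limma adjusted p = 4.30e-15). Tfpi2, an inhibitor of serine proteases, kept a wide gap, with 70.4, 73.4 and 70.9% in TET_KO on D2, against 43.0, 48.6 and 41.5% in TET_WT (27.2 ± 1.4 points, limma adjusted p = 5.73e-15).

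The noncoding RNA genes differed among themselves. Malat1, an abundant nuclear RNA, had 6.41, 5.73 and 7.32% over its 2 windows in TET_KO on D0, against 0.672, 0.771 and 0.769% in TET_WT. That difference of 5.75 ± 0.78 points was not called (limma adjusted p = 1.65e-07, under 10 points) and became -24.6 after centring. Neat1, its neighbour, had 43.1, 41.4 and 42.3% over 8 windows in TET_KO on D0, against 9.25, 10.8 and 10.2% in TET_WT (32.2 ± 1.5 points, limma adjusted p = 4.29e-16). So 2 adjacent loci of chromosome 19 lay on opposite sides of the median gene difference of 26.3 points.

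The 2 windows of the microRNA cluster also differed from each other, but both lay below the median gene difference on D0. The window with Mir290a, Mir291a, Mir292 and Mir291b (chr7:3218385-3219645) never exceeded 8.62% in any library, with 0.337, 0 and 0.260% in TET_KO on D0, against 0.115, 0.510 and 0.253% in TET_WT. On D2 it had 2.37, 2.08 and 1.90% in TET_KO, against 4.71, 8.62 and 4.26% in TET_WT, a difference of -3.75 ± 0.72 points (limma adjusted p = 2.20e-05) that missed the 10 points of the call. The next window, with Mir293, Mir294 and Mir295 (chr7:3219661-3226264), had 22.9, 23.7 and 25.1% in TET_KO on D0, against 7.84, 9.18 and 8.53% in TET_WT (15.4 ± 1.6 points, limma adjusted p = 2.58e-10). The Mir294 window thus passed the call where the Mir290a window did not. Relative to library medians both were lower in TET_KO on D0, by differences of -15.0 points for Mir294 and -30.5 points for Mir290a. The Mir290a window was nearly unmethylated in both lines, so its centred difference is almost wholly the shift of 30.4 points in library medians. Its limma adjusted p of 1.24e-16 reflects that shift and no change at the window itself. The members of the seed group AAGUGCU thus lay in both windows.

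Among the other lists, Ptprcap, a lymphocyte phosphatase-associated protein, differed by 38.6 ± 1.7 points on D0 (limma adjusted p = 1.15e-16), with 61.4, 58.5 and 66.4% in TET_KO, against 24.2, 21.9 and 24.4% in TET_WT. Pola2, from the ubiquitously expressed list, differed by 37.9 ± 1.1 points (limma adjusted p = 2.67e-18), with 56.8, 56.1 and 59.5% in TET_KO, against 19.5, 19.7 and 19.7% in TET_WT. Pon1, a paraoxonase gene in the chromosome 6 domain, differed by 31.2 ± 1.6 points (limma adjusted p = 9.00e-16). Gria4, a glutamate receptor subunit of the long neuronal list, kept 72.6, 73.1 and 70.9% in TET_KO on D2, against 42.5, 46.9 and 41.3% in TET_WT (28.6 ± 1.2 points, limma adjusted p = 2.77e-16).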

How the data were processed

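Methylation was measured by whole-genome bisulfite sequencing in 27 libraries. Per the submitters' processing notes, Trim Galore 0.6.6, cutadapt 2.3 and Bismark 0.23.0 were used on GRCm38. The deposited values are percent methylation per window of 100 CpGs. How windows were filled, any coverage minimum and the depth are not given in the sources used here, so no counting error can be attached. Values were taken as deposited.

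Windows with a value in every library (444250) entered 1 limma 3.58.1 fit (R 4.3.3) of 9 group means with moderated variance (18 residual degrees of freedom, median residual SD 2.60 points). A call needed a Benjamini-Hochberg adjusted p below 0.05 and 10 points. Gene values are means of windows overlapping the gene body. Centring subtracted the library median over windows, for genes as well. The fit was tested on simulated data.

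Named windows were the 5 called members with the largest difference per comparison and direction whose libraries did not overlap, plus listed genes and loci. Members and lists were chosen with earlier results of these data known. Alternatives covered the limit, threshold, scale, centring, weighting, replicate block and left-out libraries. RefSeq coordinates (GRCm38.p6) gave genes. The Tet deletion itself cannot be checked from these values.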

Additional observations from a re-analysis of the deposited data

Results flagged for a closer look

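The gain between D0 and D2 differed between lines in many members, by the limma test of the difference between gains. Against TET_WT, TET_KO gained more in 57 members and less in 4226, and DNMT_WT gained more in 7836 and less in 1.

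Among named windows, the gain of TET_KO differed from that of TET_WT by -38.3 points in Camk1d, by -33.0 points in a second Ppp1r9a window (chr6:5138274-5142324), by 17.3 points in Gm17308 and by 25.0 points at chr13:5064777-5070452. In that Ppp1r9a window TET_KO had 65.3, 63.8 and 62.5% on D0 and 87.7, 84.1 and 84.6% on D2, and TET_WT had 12.6, 18.01 and 15.02% on D0 and 69.0, 69.3 and 71.1% on D2. At the chromosome 13 window TET_KO had 48.3, 24.3 and 50% on D0 and 69.9, 63.3 and 81.5% on D2, and TET_WT had 38.3, 39.7 and 43.5% on D0 and 39.9, 54.5 and 44.1% on D2, so replicates spread widely there (limma adjusted p = 0.00496). The gain of DNMT_WT exceeded that of TET_WT by 58.4 points at chr15:5886767-5888021, where DNMT_WT had 11.2, 18.99 and 15.2% on D0 and 85.8, 88.1 and 88.0% on D2, and TET_WT had 72.5, 78.2 and 72.7% on D0 and 90.4, 86.9 and 87.2% on D2. With 3 libraries in each group, single libraries were not screened for extremes.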

How the results depend on the processing

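The percentages carry no read depth, so errors rest on 3 libraries a group alone, and windows covered by few reads cannot be told from deep ones. The share of members called moved by over 1.5 times in 25 of 236 recomputed shares, at a larger size threshold, with centring and once on the logit scale. A threshold of 20 points lowers it by construction; the cause of the other changes was not tested. At 20 points it was 9.92 for DNMT_WT D1 minus D0, 0 for TET_KO D1 minus D0, 2.14 for TET_KO D2 minus D1, 0.0945 for TET_WT D1 minus D0, 52.6 for TET_WT D2 minus D1, 33.9 for TET_KO minus TET_WT D2, 55.3 for DNMT_WT minus TET_WT D1, 0.872 for DNMT_WT minus TET_WT D2, 7.26 for the TET_KO gain against TET_WT and 47.3 for the DNMT_WT gain against TET_WT. With each library centred on its own median, and counting the direction of the uncentred call, it was 9.07 for DNMT_WT D1 minus D0, 1.20 for DNMT_WT D2 minus D1, 0.0105 for TET_KO D1 minus D0, 0.567 for TET_KO D2 minus D1, 0.252 for TET_WT D1 minus D0, 1.72 for TET_WT D2 minus D1, 3.11 for TET_KO minus TET_WT D0, 2.20 for TET_KO minus TET_WT D1, 4.94 for TET_KO minus TET_WT D2, 17.1 for DNMT_WT minus TET_WT D0, 11.6 for DNMT_WT minus TET_WT D1, 7.37 for DNMT_WT minus TET_WT D2, 7.87 for the TET_KO gain against TET_WT and 12.5 for the DNMT_WT gain against TET_WT. On the logit scale it was 27 for the TET_KO gain against TET_WT.

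The mean difference over members kept its sign in 211 of 222 recomputed values, and all 11 that changed sign did so after centring, which removes the shift shared by all windows by construction. With each library centred it was, in points, 0.284 for DNMT_WT D1 minus D0, -4.85 for DNMT_WT D2 minus D1, -1.15 for TET_KO D1 minus D0, -1.68 for TET_KO D2 minus D1, -0.666 for TET_WT D1 minus D0, -3.14 for TET_WT D2 minus D1, -5.0 for TET_KO minus TET_WT D0, -5.49 for TET_KO minus TET_WT D1, -4.03 for TET_KO minus TET_WT D2, -0.145 for DNMT_WT minus TET_WT D0, 0.805 for DNMT_WT minus TET_WT D1, -0.909 for DNMT_WT minus TET_WT D2, 0.975 for the TET_KO gain against TET_WT and -0.764 for the DNMT_WT gain against TET_WT. Weighted by window length it was 10.03 for DNMT_WT D1 minus D0, 36.9 for DNMT_WT D2 minus D1, 12.5 for TET_KO D2 minus D1, 26.8 for TET_KO minus TET_WT D0 and -23.8 for DNMT_WT minus TET_WT D0. The median in place of the mean was 9.95 for DNMT_WT D1 minus D0, 38.9 for DNMT_WT D2 minus D1, 27.1 for TET_KO minus TET_WT D0, 26.7 for TET_KO minus TET_WT D1 and -23.4 for DNMT_WT minus TET_WT D0. Without chromosomes 7 and 14 it was 36.2 for DNMT_WT D2 minus D1 and -23.6 for DNMT_WT minus TET_WT D0.

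The small distance of members above the other autosomal windows, in points, moved by more than the SD between libraries in 47 of 90 recomputed values and changed sign in 7. The cause was not tested. With medians it was 0.219 for DNMT_WT D0, 0.516 for DNMT_WT D1, -0.428 for DNMT_WT D2, 0.569 for TET_KO D0, 0.540 for TET_KO D1, 0.541 for TET_KO D2, 0.957 for TET_WT D0 and 1.23 for TET_WT D1. With the other windows weighted to the length classes of the members it was 0.738 for DNMT_WT D0, 1.02 for DNMT_WT D1, 0.808 for DNMT_WT D2, 0.800 for TET_KO D0, 0.597 for TET_KO D1, 0.125 for TET_KO D2, 1.72 for TET_WT D0, 1.77 for TET_WT D1 and 1.79 for TET_WT D2. With a limit of 5 Mb it was 0.852 for DNMT_WT D0, 0.931 for DNMT_WT D1, 0.207 for DNMT_WT D2, 0.285 for TET_KO D0, -0.0166 for TET_KO D1, -0.475 for TET_KO D2, 1.80 for TET_WT D0, 1.77 for TET_WT D1 and 1.42 for TET_WT D2. With a limit of 9 Mb it was 0.596 for DNMT_WT D0, 0.374 for DNMT_WT D1, -0.180 for DNMT_WT D2, 1.06 for TET_KO D0, 0.926 for TET_KO D1, 0.627 for TET_KO D2, 1.71 for TET_WT D0 and 1.64 for TET_WT D1. Without chromosomes 7 and 14 it was 0.780 for DNMT_WT D0, 1.06 for DNMT_WT D1, 1.12 for DNMT_WT D2, 1.32 for TET_KO D0, 1.19 for TET_KO D1, 0.763 for TET_KO D2, 2.15 for TET_WT D0, 2.25 for TET_WT D1 and 2.40 for TET_WT D2. Without the first 250 kb, an alternative chosen after seeing the data, it was 0.518 for DNMT_WT D0, 0.602 for DNMT_WT D1, 0.340 for TET_KO D0, 0.123 for TET_KO D1, 1.13 for TET_WT D0, 1.14 for TET_WT D1 and 1.10 for TET_WT D2. Without the chromosome 9 run, also chosen after seeing the data, it was 0.646 for DNMT_WT D0, 0.650 for DNMT_WT D1, 1.45 for TET_WT D0 and 1.41 for TET_WT D1.

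Of the 590 recomputed differences of named windows and genes, 15 changed sign, all after centring and all for TET_KO minus TET_WT on D0: -0.599 for the Lif start window, -26.4 for the Suv39h2 start window, -5.34 for the body of Dnmt3a, -9.98 for the body of Suv39h2, -7.54 for the body of Kmt5b, -8.45 for the body of Kmt5c, -23.6 for the body of Sox17, -9.02 for the body of Lif, -4.14 for the body of Esr1, -9.30 for the body of Zeb1, -11.4 for the body of Peg10, -0.721 for the body of Sgce, -24.6 for the body of Malat1, -15.0 for the body of Mir294 and -3.43 for the body of Klf6 points. Another 20 lost the call and 1, Mir290a at -30.5 points after centring, gained it, the losses with 20 points, centring or the logit scale, and none when a library was left out. The Mir290a window was nearly unmethylated in both lines on D0, so the call it gained reflects the shift in library medians. After centring the TET_KO minus TET_WT difference was no longer called on D0 at 9.04 for Esr1 start window, 1.79 for Neat1, 1.69 for Cenpo, 0.820 for Pon1, 2.43 for Osm, 7.49 for Pola2 and 8.24 for Ptprcap points, nor on D2 at 9.86 for Zfhx4, 6.45 for Tfpi2 and 7.85 for Gria4 points.

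Leaving out each library in turn changed no call of a named window or gene, no sign and none of the means or shares beyond these limits. Calls of the remaining members were compared only as shares. Libraries with the same replicate number did not deviate together, with correlations between -0.0549 and 0.0570 over 108 pairs, so no pairing was seen. Whether such libraries share a culture cannot be read from these correlations or from the labels. With a replicate block, 90.7% of members were called for TET_KO minus TET_WT on D0 and 14.8% for DNMT_WT minus TET_WT on D2, and no call of a named window or gene changed.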
